A study of Mus musculus with 16 samples.

Results

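The genes described here encode the nuclear subunits of the mitochondrial respiratory chain and of ATP synthase. They were chosen by symbol alone, as all names that begin with Ndufa, Ndufb, Ndufc, Ndufs or Ndufv and a digit, Sdha to Sdhd, and all names that begin with Uqcr, Cox4 to Cox8 or Atp5. This gave 85 of the 22609 genes in the count files, 37 in complex I, 4 in complex II, 8 in complex III, 19 in complex IV and 17 in complex V. The counts come from 16 RNA-seq libraries, 4 in each of 4 groups of male mice aged 8 to 16 weeks. The mice carried floxed alleles of the lymphotoxin beta receptor gene, either alone (LTbR-fl/fl, here fl/fl) or with a Cre recombinase driven by Nav1.8, the sodium channel of nociceptive neurons (Nav1.8/LTbR CKO, here CKO). Every group therefore shares the floxed alleles, and no library without them was part of the comparisons. Each genotype label had received paclitaxel (PTX), which is given against tumours, binds microtubules and often leaves sensory nerves painful, at 6 mg/kg in 3 injections 2 days apart, or vehicle, which the treatment label gives as water. Lumbar dorsal root ganglia were taken 18 days after the last injection, and cells that had taken up a wheat germ agglutinin tracer injected into the paw were sorted. The labels do not say whether a library is 1 mouse or a pool, and the design text gives 3 mice per group where 4 libraries are labelled, so p-values measure the spread between these libraries.

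Complexes I to IV pass electrons from NADH and succinate to oxygen, and complexes I, III and IV pump protons across the inner mitochondrial membrane. ATP synthase, complex V, lets the protons back and makes ATP, the main fuel for the ion pumps that restore the membrane potential of a firing sensory neuron. Complexes I, III, IV and V each hold nuclear subunits together with a few that the mitochondrial genome encodes, whereas complex II is wholly nuclear. None of the 13 protein genes of the mitochondrial genome is among the gene entries used here, so all values concern nuclear subunits.

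Promoter sequences are shown for members on which the results below turn. RefSeq promoters (build GRCm38.p6, 250 bases before to 50 after the start) were found for 69 of the 85 members, 75 promoters in all. They were searched on both strands for short strings that are the core of sites for factors known to act on respiratory genes. The 10-letter NRF1 palindrome, in capitals in the Cox6a1 and Uqcrc1 promoters printed here, was in 6.67% of member promoters and in 0.971% of all promoters in the table, and its shorter part GCATGCGC in 13.3% and 2.71%. AAGATGGCG (YY1) was in 12% of member promoters and 1.4% of all, CCGGAAG (GABP) in 21.3% and 8.86%, and AAGGTCA (ERR) in 10.7% and 4.72%. Among all protein-coding promoters the shares were 1.33% for the long NRF1 string, 3.52% for the short one, 1.83% for YY1, 11.6% for GABP and 4.08% for ERR. These are matches of letters and not measured binding. In the sequences that follow, capitals mark the matched letters, in the orientation in which they lie. Cox6a1 (chr5:115348909-115349208, - strand) and Uqcrc1 (chr9:108936398-108936697, + strand) hold the long NRF1 string. Both were higher in the PTX libraries of the earlier title date, as were 76 of the 79 tested members by their fitted values. Sdhb (chr4:140961021-140961320, + strand) holds the shorter NRF1 string and the GABP string, Ndufs8 (chr19:3912725-3913024, - strand) the GABP string and Ndufa9 (chr6:126849095-126849394, - strand) the YY1 string. Sdha (chr13:74350191-74350490, - strand), the member nearest to the threshold between PTX and vehicle in fl/fl, holds none of the strings in this window.
Cox6a1: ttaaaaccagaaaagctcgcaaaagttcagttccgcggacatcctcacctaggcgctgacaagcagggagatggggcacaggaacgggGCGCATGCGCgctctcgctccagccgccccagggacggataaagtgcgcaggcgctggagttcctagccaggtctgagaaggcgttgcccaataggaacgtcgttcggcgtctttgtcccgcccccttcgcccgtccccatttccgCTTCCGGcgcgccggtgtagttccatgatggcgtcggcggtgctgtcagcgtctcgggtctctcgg
Uqcrc1: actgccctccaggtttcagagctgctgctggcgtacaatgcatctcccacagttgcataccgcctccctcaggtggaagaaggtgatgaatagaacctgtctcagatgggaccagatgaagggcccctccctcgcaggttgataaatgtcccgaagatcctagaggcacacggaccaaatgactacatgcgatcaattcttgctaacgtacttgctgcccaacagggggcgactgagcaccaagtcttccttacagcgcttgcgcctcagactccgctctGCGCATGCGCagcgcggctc
Sdhb: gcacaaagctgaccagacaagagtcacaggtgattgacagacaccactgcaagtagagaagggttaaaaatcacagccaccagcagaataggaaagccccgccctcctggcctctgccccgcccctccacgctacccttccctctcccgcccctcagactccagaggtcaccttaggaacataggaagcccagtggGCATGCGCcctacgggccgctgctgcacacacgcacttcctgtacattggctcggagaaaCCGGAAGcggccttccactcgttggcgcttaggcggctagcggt
Ndufs8: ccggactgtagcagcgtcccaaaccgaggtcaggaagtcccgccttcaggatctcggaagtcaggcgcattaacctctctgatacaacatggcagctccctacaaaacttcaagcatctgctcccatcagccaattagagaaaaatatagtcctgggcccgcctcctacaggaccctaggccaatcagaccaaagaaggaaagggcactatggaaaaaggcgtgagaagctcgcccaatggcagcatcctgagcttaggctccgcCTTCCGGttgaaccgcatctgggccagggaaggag
Ndufa9: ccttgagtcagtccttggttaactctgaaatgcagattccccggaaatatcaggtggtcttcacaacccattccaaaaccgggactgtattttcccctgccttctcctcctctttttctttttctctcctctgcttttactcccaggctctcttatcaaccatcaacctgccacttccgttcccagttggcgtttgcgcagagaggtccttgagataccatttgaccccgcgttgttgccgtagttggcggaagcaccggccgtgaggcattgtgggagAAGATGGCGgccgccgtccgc
Sdha: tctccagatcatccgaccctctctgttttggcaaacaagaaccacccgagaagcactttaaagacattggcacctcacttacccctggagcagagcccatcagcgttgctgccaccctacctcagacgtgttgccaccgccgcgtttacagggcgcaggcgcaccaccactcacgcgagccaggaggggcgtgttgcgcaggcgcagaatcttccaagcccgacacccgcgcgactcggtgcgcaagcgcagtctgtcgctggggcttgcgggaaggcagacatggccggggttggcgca

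The libraries held 7906504 to 11668007 counts on genes, and 79 of the 85 members passed the filter on low counts that left 14200 genes. Ltbr, the floxed gene, was not lower under the CKO label (5.88 to 28.4 TMM-scaled CPM in PTX CKO against 6.06 to 15.6 in PTX fl/fl, and 32.3 to 99.0 against 42.4 to 51.4 under vehicle), so CKO is used here as a label only. A count over the whole gene does not check a deletion in part of the cells. The 16 sensory neuron markers together took 1.16 to 2.89% of gene counts in the PTX libraries and 0.127 to 0.846% in the vehicle libraries, with all 16 detected at every title date. Between PTX and vehicle, 10 of the 16 were called higher (edgeR, adjusted p under 0.05) in fl/fl and 8 in CKO, where 3.2% and 2.22% of all genes were. All 16 had positive log2 fold changes in both labels, with medians of 2.30 and 2.33. Neutrophil markers took 0.0314 to 11.6% in PTX and 7.50 to 19.1% in vehicle libraries, and satellite glia markers 0.477 to 2.95% and 0.975 to 3.97%. Of 12 satellite glia markers 6 were called lower in fl/fl and 1 in CKO, where 1.76% and 0.359% of all genes were. Of 12 macrophage markers 2 were called lower in fl/fl and 0 in CKO, and of 11 neutrophil markers 0 in either label. No tested marker of these lists had a positive fold change in either label. Markers of myelinating Schwann cells took 0.173 to 0.310% in PTX and 0.507 to 0.927% in vehicle libraries, without overlap, and 8 of 11 tested were called lower in fl/fl and 6 in CKO. Fibroblast markers took 0.0104 to 0.0606% and 0.0412 to 0.333%, with 5 and 3 of 9 called lower. In such bulk samples fewer cells of a type and less RNA per cell cannot be told apart. The library titles also carry 4 dates. The 8 PTX libraries fall on an earlier and a later date and the 8 vehicle libraries on 2 dates of their own, with 2 libraries per genotype label on each. What the dates mark is not said, and date and treatment cannot be told apart.

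Most members were abundant transcripts. Per kilobase of transcript, Cox4i1, the common isoform of the largest nuclear subunit of cytochrome c oxidase, averaged 635 CPM per kb over the 16 libraries. Atp5b, the catalytic beta subunit of ATP synthase, averaged 627, Cox6a1 571 and Cox8a 524 CPM per kb. Complex II subunits were lower on the same scale, with 170 for Sdhb, 115 for Sdha, 103 for Sdhd and 42.9 for Sdhc. Of the 85 members 15 averaged under 20 CPM. These 15 fall into those with a transcript that other genes hardly share and those that share 37.5% or more of it, as the plot of levels beside shared sequence shows.

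**Figure D1:**
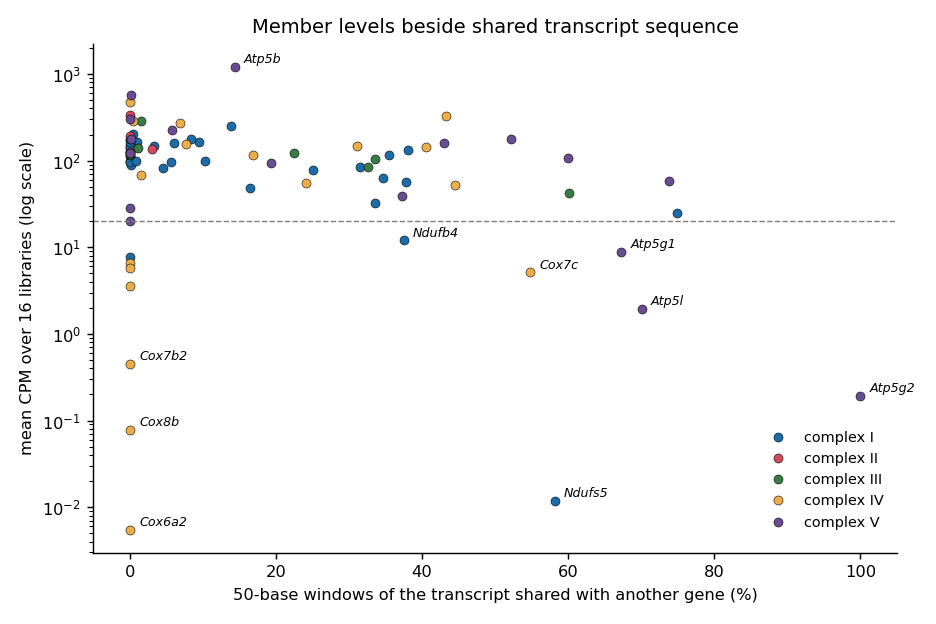
Each point is a member with at least 1 count, placed by the percentage of the 50-base windows of its transcript that occur in another gene's transcript with at most 2 mismatches (x axis) and by its mean CPM over 16 libraries (y axis, log scale), coloured by complex. The dashed line is at 20 CPM. Of the members drawn below it, 8 share at most 10% of their windows, and 6 (Ndufb4, Cox7c, Ndufs5, Atp5g1, Atp5l and Atp5g2) share 37.5% or more.

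The 9 low members that share at most 10% of windows were Cox4i2, Cox6a2, Cox6b2, Cox7a1, Cox7b2, Cox8b, Cox8c, Ndufa4l2 and Atp5s. The 8 other than Atp5s are alternative isoforms of a common subunit, several of them known from heart, muscle, lung or testis. In each pair the common isoform was the higher. Cox4i1 averaged 635 CPM per kb and Cox4i2 8.94, Cox6a1 571 and Cox6a2 0.00808, and Cox6b1 442 and Cox6b2 12.4. Cox7a2 averaged 234, its relative Cox7a2l 50.8 and Cox7a1 8.97 CPM per kb, Cox7b 116 and Cox7b2 0.827, and Cox8a 524 and Cox8b 0.217. Cox8c had no count in any library. Ndufa4, kept with complex I by its symbol although its product is now placed in complex IV, averaged 416 CPM per kb and its relative Ndufa4l2 8.25.

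The low members with shared windows included subunits that every mitochondrion needs. Ndufs5 had 2 counts, both in 1 of the 16 libraries, and 58.2% of its windows occur in another gene. Atp5g1, Atp5g2 and Atp5g3 encode the same mature c subunit of the ATP synthase rotor from separate genes, and averaged 15.0, 0.437 and 246 CPM per kb with 67.3%, 100% and 0.15% of windows shared. The Atp5g2 transcript used had 441 bases, of which 1 to 438 are coding. Its 100% therefore describes coding sequence and not the untranslated parts of a longer transcript. Atp5l averaged 3.58 CPM per kb with 70.1% shared, Cox7c 9.54 with 54.8% and Ndufb4 12.3 with 37.5%. Between 39.5 and 44.2% of all counted alignments were not unique and entered no gene. The 10 members that share over 50% of their windows had a median of 19.4 CPM per kb, against 115 for the 51 members that share at most 10% and 138 for the 24 members between. Across all 85 members the rank correlation of percent shared and CPM per kb was 0.000809, and 5 of the 10 averaged under 20 CPM. The part of unplaced reads in these low values was not tested, and the levels of the 10 are uncertain. Windows of coding sequence that occur unchanged in other genes are shown to make this visible. The window from Atp5l occurs in 9 other genes, that from Atp5g2 in 2, that from Cox7c in 2 and that from Ndufs5 in 1, all annotated as pseudogenes in GENCODE M21.
Atp5l: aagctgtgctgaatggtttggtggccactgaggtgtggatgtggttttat
Atp5g2: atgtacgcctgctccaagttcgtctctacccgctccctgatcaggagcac
Cox7c: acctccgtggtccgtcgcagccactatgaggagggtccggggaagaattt
Ndufs5: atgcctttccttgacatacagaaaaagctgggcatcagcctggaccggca

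The first comparison asks whether PTX treatment went with another level of the chain. No member passed the threshold (adjusted p under 0.05, edgeR quasi-likelihood, adjusted over all 14200 genes) in either genotype label, where 4.96% of all genes passed in fl/fl (3.2% higher, 1.76% lower) and 2.58% in CKO (2.22% higher, 0.359% lower). In fl/fl 47 of the 79 members tested (59.5%, against 49.8% of all genes) had a positive log2 fold change, with a median of 0.10 beside -0.01 for all genes. At an unadjusted p under 0.05, 5 were higher and 2 lower, where 19.5% of all genes passed, 11.3% higher and 8.24% lower. In CKO 61 of 79 were positive (77.2%, against 50.6% of all genes), with a median of 0.33 beside 0.02. There 14 were higher and 0 lower at an unadjusted p under 0.05, where 19.7% of all genes passed, 12.7% higher and 6.96% lower. Groups did not overlap for 3 members higher and 4 lower in fl/fl (11% and 7.8% of all genes) and for 11 higher and 1 lower in CKO (8.91% and 4.54%). Among genes averaging at least 20 CPM, 8.64% passed the adjusted threshold in fl/fl and 4.27% in CKO, against 0 of the 70 members at that level. Other scalings moved the members' medians, to 0.04 in fl/fl with RLE or upper-quartile factors and 0.18 with total gene counts, and in CKO to 0.25, 0.35 and 0.54 in the same order. The choice of tool moved the count. DESeq2 called 4 members in fl/fl and 5 in CKO (10.7% and 9.37% of all genes), and limma-voom 17 and 9 (37.2% and 18.9%). The median standard error of a member was 0.30 on the log2 scale, and the 95% interval spanned 0 for 72 of 79 members in fl/fl and 65 in CKO. A difference smaller than these intervals was not detectable with 4 libraries per group.

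**Figure D2:**
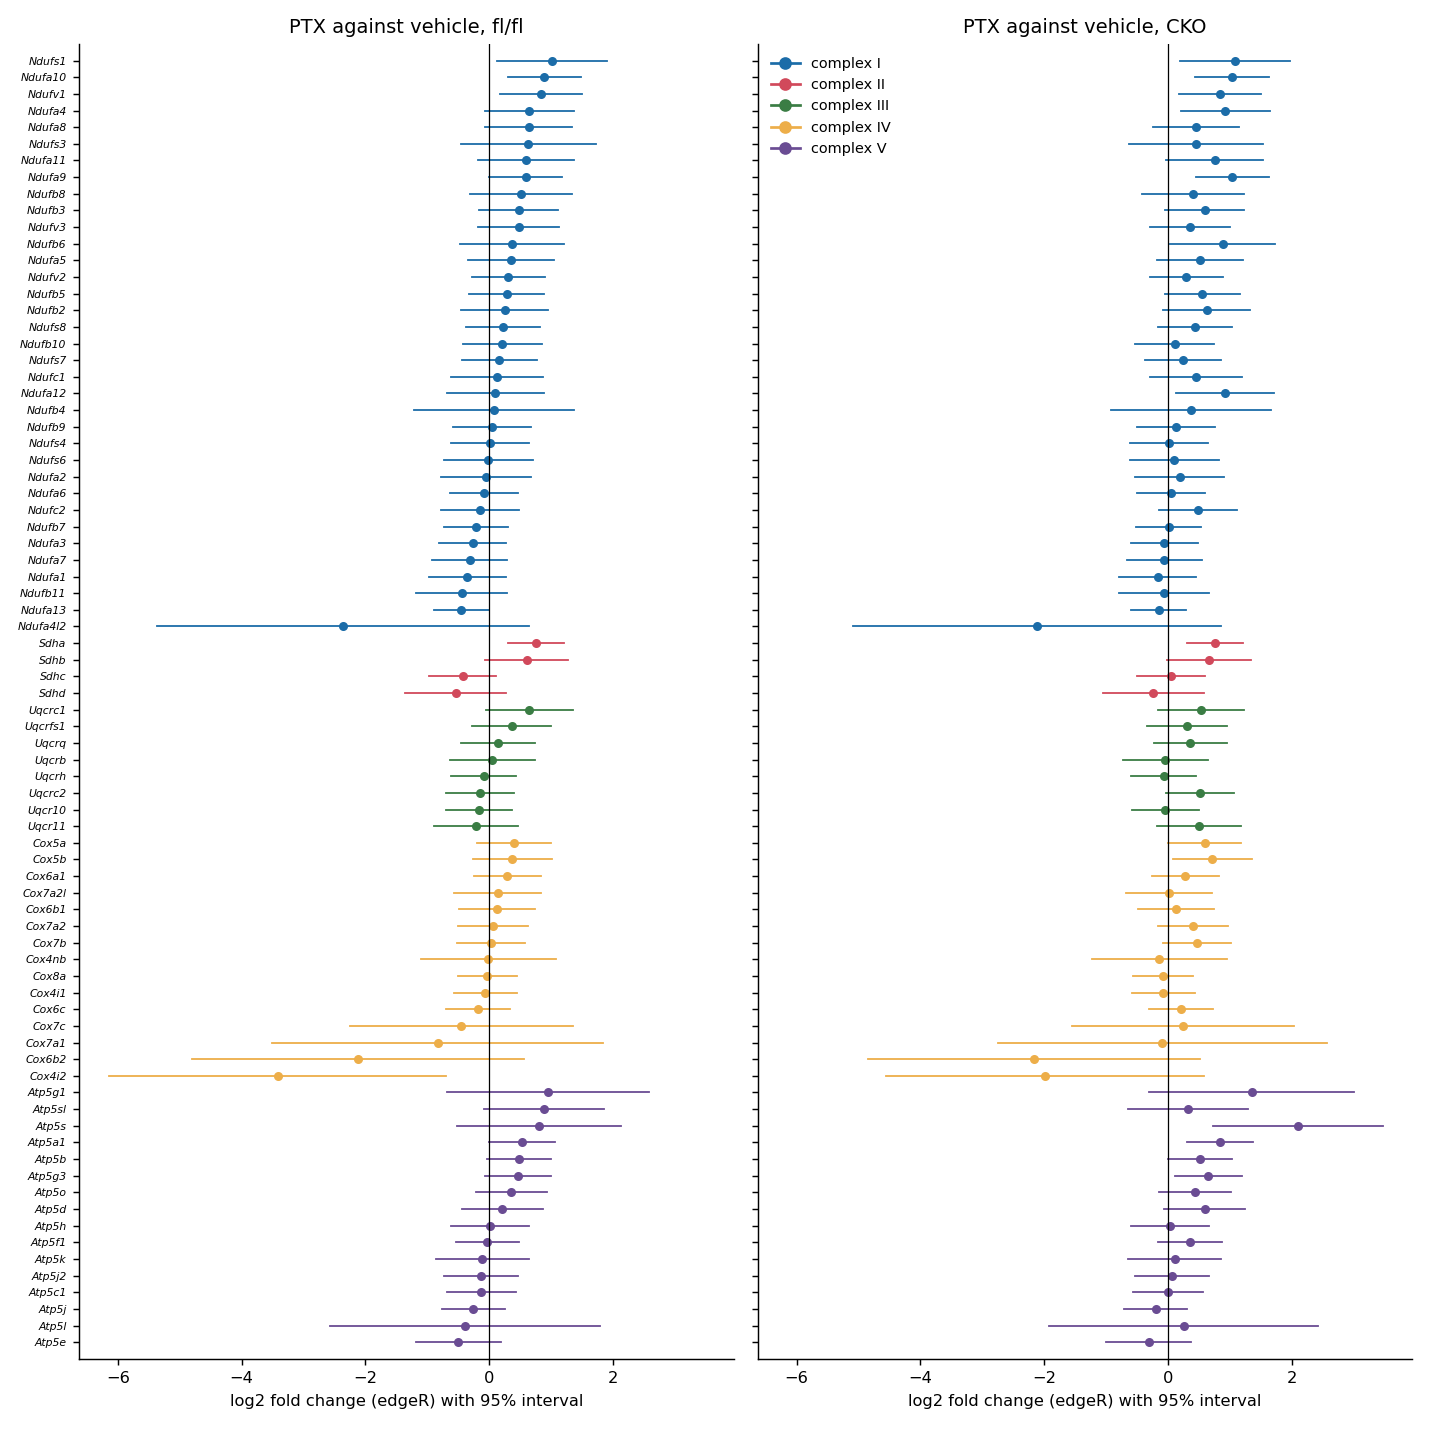
Log2 fold change of 78 of the 79 tested members between PTX and vehicle (x axis, edgeR) with its 95% interval, in fl/fl (left) and CKO (right), grouped and coloured by complex and ordered by the fl/fl value. Ndufs1, Ndufa10, Ndufv1, Sdha and Atp5a1 have intervals above 0 in both panels, and the widest intervals belong to the low isoforms Cox4i2, Cox6b2, Cox7a1 and Ndufa4l2 and to the members with shared windows.

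Complex I, NADH dehydrogenase, had summed levels of 5652, 5411, 3859.7 and 3777 CPM in PTX fl/fl and 3940.5, 3242, 3957 and 4504 in vehicle fl/fl, a ratio of means of 1.20, and the groups overlapped. In CKO the sums were 5009.5, 5872, 3388 and 3667 under PTX and 2949, 3671, 3517 and 3206 under vehicle, a ratio of 1.34, again with overlap. Of the 36 members tested 25 were positive in fl/fl and 30 in CKO, with medians of 0.20 and 0.43.

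Ndufs1, the largest core subunit, which carries iron-sulphur clusters, stood at 209, 222, 139 and 149 CPM in PTX fl/fl and 129, 31.0, 54.6 and 141 in vehicle fl/fl. The groups overlapped at the upper vehicle values, and the log2 fold change was 1.01 (SE 0.42, adjusted p = 0.192). Its CKO value was 1.08 (SE 0.42, adjusted p = 0.167). Ndufv1, which binds NADH, was at 355, 323, 211 and 249.7 CPM in PTX fl/fl and 154, 75.6, 218 and 189.9 in vehicle fl/fl, with overlap and a log2 fold change of 0.84 (SE 0.31, adjusted p = 0.142). In CKO it did not overlap, with 235, 302, 197 and 194 CPM under PTX and 96.7, 129, 166 and 126 under vehicle (log2 difference 0.84, SE 0.31, adjusted p = 0.148).

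Ndufa10 and Ndufa9 are accessory subunits. Ndufa10 had 186, 270.1, 183 and 202 CPM in PTX CKO and 129, 81.1, 93.1 and 106 in vehicle CKO, without overlap, and a log2 fold change of 1.04 (SE 0.28, adjusted p = 0.0585). In fl/fl it overlapped in 1 library of each group, at 0.89 (SE 0.28, adjusted p = 0.0825). Ndufa9 had 128, 159, 94.5 and 111 CPM in PTX CKO and 54.1, 65.4, 47.4 and 72.1 in vehicle CKO, with the smallest adjusted p of any member in that label (log2 difference 1.04, SE 0.28, adjusted p = 0.0569). Both missed the threshold by little, and leaving out 1 or another single library moved values past it. Without PTX fl/fl replicate 4 or vehicle fl/fl replicate 4, Ndufa10 in fl/fl had an adjusted p of 0.0451 or 0.0470. Without PTX fl/fl replicate 4, Ndufa10 in CKO had 0.0494, and without PTX CKO replicate 3, Ndufa9 in CKO had 0.0456. PTX fl/fl replicate 4 is in neither CKO group and serves that comparison only through steps shared by all libraries, such as the estimate of the spread. Ndufa13, another accessory subunit, lay the other way in fl/fl, at 153, 147, 118 and 129 CPM under PTX and 194, 195, 175 and 184 under vehicle, without overlap (log2 difference -0.45, SE 0.21, adjusted p = 0.255).

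Complex II, succinate dehydrogenase, links the citric acid cycle to the chain. It was the only complex whose summed levels did not overlap in CKO, at 865, 1009, 799 and 746 CPM under PTX and 671, 621, 666 and 553 under vehicle, a ratio of 1.36. In fl/fl the ratio was 1.24 with overlap. Sdha, the flavoprotein that oxidises succinate, was at 465, 457, 405 and 514 CPM in PTX fl/fl and 284, 216, 287 and 303 in vehicle fl/fl. Every PTX library was above every vehicle library, with a log2 fold change of 0.76 (SE 0.21, adjusted p = 0.0514). In CKO it was at 377, 404, 354 and 384 and 239, 209, 277 and 166 CPM, again without overlap (log2 difference 0.77, SE 0.21, adjusted p = 0.0621). Sdha in fl/fl passed the threshold without vehicle CKO replicate 4 (adjusted p = 0.0423). That library serves this comparison only through steps shared by all libraries, such as the filter, the scaling and the estimate of the spread.

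The other complex II subunits differed among themselves. Sdhb, the iron-sulphur subunit, was at 252, 304, 205 and 171 CPM in PTX CKO and 129, 140.1, 166 and 155 in vehicle CKO (log2 difference 0.66, SE 0.32, adjusted p = 0.266), and overlapped in fl/fl (log2 difference 0.60, SE 0.32, adjusted p = 0.319). Sdhc, a membrane anchor, was lower without overlap in PTX fl/fl, at 129, 135, 114 and 114 against 181, 151, 171 and 161 CPM, though not past the threshold (log2 difference -0.43, SE 0.26, adjusted p = 0.394). In CKO it overlapped, at 0.05 (SE 0.26, adjusted p = 0.939). Sdhd, the other anchor, had -0.54 (SE 0.39, adjusted p = 0.487) in fl/fl and -0.24 (SE 0.39, adjusted p = 0.785) in CKO. The soluble subunits thus had positive and the anchors in fl/fl negative values, and none of the 4 was called.

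In complex III, which passes electrons from ubiquinol to cytochrome c, the ratios of summed levels were 1.13 in fl/fl and 1.25 in CKO, with overlap in both. Uqcrc1, a core protein, was at 496, 465, 290.2 and 227 CPM in PTX fl/fl and 241, 216, 255 and 231 in vehicle fl/fl (log2 difference 0.65, SE 0.33, adjusted p = 0.299). The 2 PTX libraries of the earlier title date were far above the rest, and the other PTX libraries lay among the vehicle libraries or just above them. Uqcrfs1, the Rieske iron-sulphur protein, had 0.36 (SE 0.30, adjusted p = 0.561) in fl/fl and 0.31 (SE 0.30, adjusted p = 0.619) in CKO. Uqcrq, a small subunit, had 0.14 (SE 0.28, adjusted p = 0.847) and 0.37 (SE 0.28, adjusted p = 0.507).

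Complex IV, cytochrome c oxidase, had the lowest ratios of the 5 complexes, 1.04 in fl/fl and 1.11 in CKO, with overlap. The 2 most abundant members, Cox4i1 and Cox6a1, had log2 fold changes of -0.06 (SE 0.24, adjusted p = 0.927) and 0.29 (SE 0.26, adjusted p = 0.587) in fl/fl, with 95% intervals of -0.57 to 0.44 and -0.25 to 0.84. In CKO the values were -0.07 (SE 0.24, adjusted p = 0.903) and 0.28 (SE 0.26, adjusted p = 0.584). Cox5a, at 203, 199.9, 155 and 162 CPM in PTX fl/fl and 147, 113, 136 and 149.8 in vehicle fl/fl, and Cox5b were higher without overlap in fl/fl, though their fitted values were 0.40 (SE 0.28, adjusted p = 0.475) and 0.37 (SE 0.30, adjusted p = 0.547).

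The tested low isoforms of complex IV and Ndufa4l2 had negative log2 fold changes in both labels, none past the threshold. Cox4i2, an isoform known from lung and from oxygen-sensing cells, was at 2.82, 1.05, 0.306 and 0 CPM in PTX fl/fl and 9.29, 6.79, 22.6 and 6.82 in vehicle fl/fl, without overlap (log2 difference -3.42, SE 1.29, adjusted p = 0.148). In CKO it was at 2.36, 1.23, 6.19 and 1.19 and 14.6, 19.1, 7.29 and 2.40 CPM, with overlap (log2 difference -1.98, SE 1.22, adjusted p = 0.390). Cox6b2, the testis isoform, had 6.01, 1.52, 2.17 and 0 CPM in PTX CKO and 6.96, 9.19, 15.7 and 11.7 in vehicle CKO (log2 difference -2.16, SE 1.27, adjusted p = 0.369). Ndufa4l2, a gene induced by low oxygen, had 0.498, 1.85, 2.04 and 5.08 CPM in PTX fl/fl and 3.71, 11.4, 11.9 and 21.7 in vehicle fl/fl (log2 difference -2.36, SE 1.42, adjusted p = 0.395), and -2.12 (SE 1.41, adjusted p = 0.435) in CKO. Intervals at this depth were wide, -4.84 to 0.52 for Cox6b2 and -5.09 to 0.86 for Ndufa4l2 in CKO. The summed levels of markers of vessel and muscle cells overlapped between the treatments, and 0 of 10 endothelial and 0 of 10 tested mural and muscle markers passed the threshold in either label. Mural and muscle markers took 0.00774 to 0.0897% of counts in PTX and 0.0379 to 0.138% in vehicle libraries, and endothelial markers 0.00513 to 0.0123% and 0.00465 to 0.0223%. At each title date at most 1 marker of either list was at 0 in all 4 libraries (Tek of the 10 endothelial, Tnnt3 or Mylpf of the 12 mural and muscle markers), while the fitted medians were negative. The 10 endothelial markers had a median of -1.76 in fl/fl (0 of 10 positive) and -1.69 in CKO (1 of 10), and the 10 tested mural and muscle markers -1.51 (1 of 10) and -1.13 (3 of 10). Their part in the isoform values was not tested.

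In complex V the ratios of summed levels were 1.22 in fl/fl and 1.36 in CKO, with overlap. Atp5a1 and Atp5b form the catalytic head. Atp5a1 had 739, 781, 599 and 529 CPM in PTX CKO and 372, 470.2, 267 and 368 in vehicle CKO, without overlap, and a log2 fold change of 0.84 (SE 0.25, adjusted p = 0.0800). In fl/fl the value was 0.53 (SE 0.25, adjusted p = 0.255). Atp5b, the member with the highest CPM, had 1368, 1709.9, 1154 and 1279 CPM in PTX CKO and 1274, 706, 1035 and 838 in vehicle CKO (log2 difference 0.52, SE 0.25, adjusted p = 0.257), and 0.48 (SE 0.25, adjusted p = 0.302) in fl/fl. Of the c subunit genes, Atp5g3 had 219, 265, 165 and 159 against 119, 115, 128 and 152 CPM in CKO, without overlap (log2 difference 0.66, SE 0.25, adjusted p = 0.166). Atp5g1 had 1.35 (SE 0.78, adjusted p = 0.360), on windows that are mostly shared.

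Some genes that match the symbols are not subunits. Atp5s and Atp5sl are now named Dmac2l and Dmac2, and Cox4nb is now Emc8, a subunit of an endoplasmic reticulum complex. Atp5s had the largest positive value of the set in CKO, 35.4, 31.8, 16.5 and 28.0 CPM under PTX and 7.29, 12.0, 3.32 and 3.44 under vehicle, without overlap (log2 difference 2.10, SE 0.65, adjusted p = 0.0889). Atp5sl had 0.33 (SE 0.46, adjusted p = 0.741) and Cox4nb -0.14 (SE 0.51, adjusted p = 0.919) in the same comparison.

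When both genotype labels were averaged (8 PTX against 8 vehicle libraries, a comparison added after seeing the data), 9 members were higher and 1 was lower. That is 12.7% of the members, where 16.7% of all genes were called. The higher members were Sdha, Ndufa10, Ndufa9, Atp5a1, Ndufv1, Ndufs1, Ndufa4, Atp5s and Atp5g3, and the lower was Cox4i2. Sdha had a log2 fold change of 0.76 (SE 0.15, adjusted p = 0.00304), with 420 ± 53.7 CPM in PTX and 248 ± 47.7 in vehicle libraries (SD, n = 8), and was the only one of the 10 whose 8 PTX libraries all lay above all 8 vehicle libraries. Ndufa10 had 0.96 (SE 0.20, adjusted p = 0.00399), with 216 ± 46.3 and 111 ± 29.9 CPM (SD, n = 8). The share was below that of all genes, so the count says nothing particular of the chain.

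**Figure D3:**
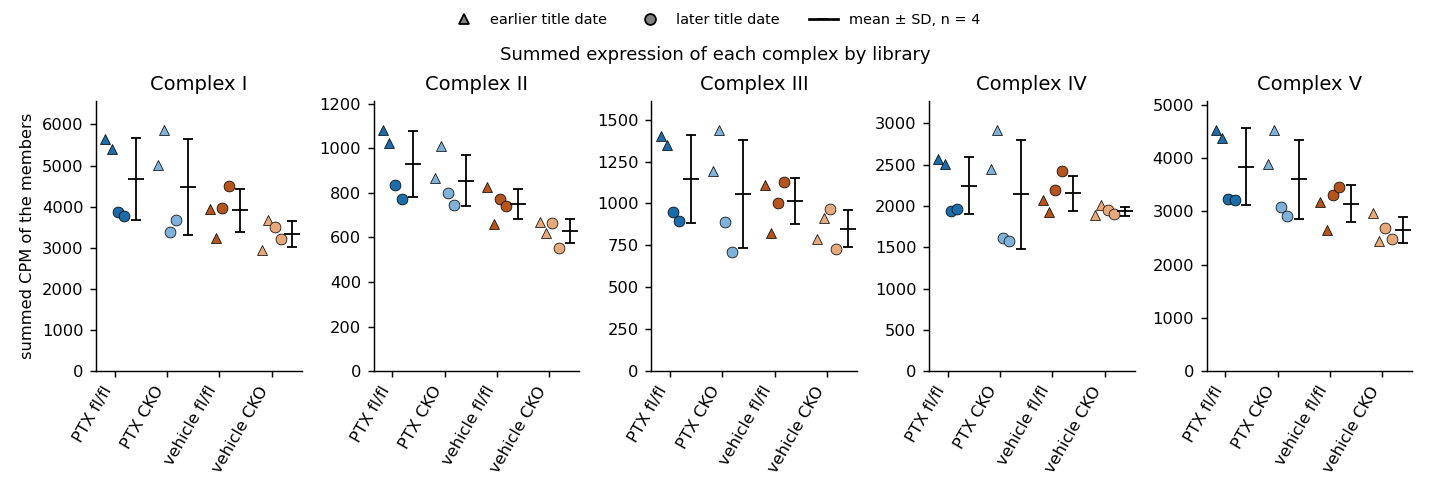
Summed CPM of the members of each complex in each library (y axes start at 0), by group. Triangles are libraries of the earlier and circles of the later title date within a treatment, and bars give the mean and SD of 4 libraries. In PTX the triangles lie above the circles in all 5 complexes, whereas in vehicle they mix.

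The PTX libraries separated by title date and overlapped between the genotype labels. The sum over all members was 13401 to 15760 CPM in the 4 PTX libraries of the earlier date and 9606 to 10808 in the 4 of the later date, while the 8 vehicle libraries lay between 8873 and 12251. No complex overlapped between the PTX dates, with earlier-to-later ratios of 1.49 for complex I, 1.26 for II, 1.56 for III, 1.47 for IV and 1.39 for V. In vehicle the same ratios were 0.91, 1.02, 0.95, 0.93 and 0.94, all with overlap. The comparison of dates was added after seeing the summed levels separate. In the edgeR fit with 1 term per group and date, 76 of 79 members (96.2%) were positive in PTX, where 56.1% of all genes were, and 45 members (57.0%) were higher without overlap, where 12.7% of all genes were. Members are measured more precisely than most genes, with a median standard error of 0.301 beside 0.815 between PTX and vehicle in fl/fl. No background of like level was drawn for the dates. The 1 member lower without overlap stood beside 9.75% of all genes, and 39 members had an unadjusted p under 0.05 beside 20.2% of all genes. After adjustment 7 members were higher and 1 lower. All genes called made up 8.93%, with 1.8% higher and 7.13% lower, so the share of members called higher, 8.86%, was above that of all genes. In vehicle 0 members were called, where 0.162% of all genes were, and 6 of 79 had an unadjusted p under 0.05, as did 8.41% of all genes.

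**Figure D4:**
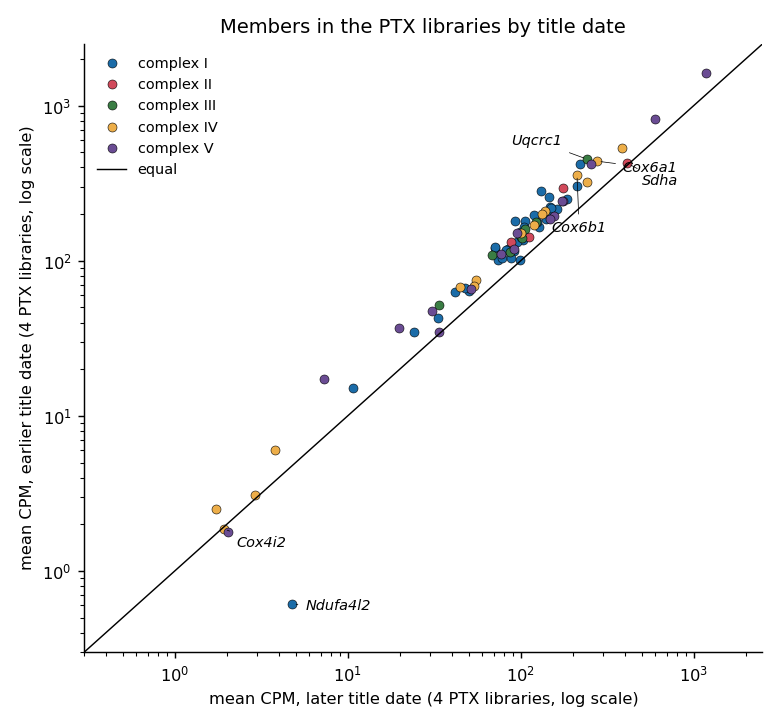
Mean CPM of each tested member over the 4 PTX libraries of the later title date (x axis) and the 4 of the earlier date (y axis), both on log scales, coloured by complex, with the line of equality. Most points lie above the line (76 of 79 fitted differences are positive), with Sdha close to it and Ndufa4l2 far below.

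The 7 members called higher at the earlier PTX date came from complexes I, III and IV. Ndufb8, an accessory subunit of the membrane arm of complex I, was at 302, 287, 228 and 305 CPM at the earlier date and 188, 130.4, 131 and 71.7 at the later (log2 difference 1.14, SE 0.24, adjusted p = 0.00895, earlier minus later, as for the members that follow). Ndufa4 was at 467, 416, 337 and 462 and 234, 224, 187 and 235 CPM (log2 difference 0.93, SE 0.21, adjusted p = 0.0120), without overlap. Cox6a1, whose promoter is shown above with the NRF1 letters and of whose windows 43.3% occur in another gene, was at 431, 409.7, 411 and 504 and 272, 305, 276 and 259 CPM (log2 difference 0.66, SE 0.16, adjusted p = 0.0186). Cox6b1, which lies at the outer face of the enzyme, had 0.78 (SE 0.19, adjusted p = 0.0209). Uqcrc1 was at 496, 465, 378 and 467 and 290.2, 227, 305 and 151 CPM (log2 difference 0.89, SE 0.25, adjusted p = 0.0401). The core subunit Ndufs8 had 0.73 (SE 0.21, adjusted p = 0.0425) and Ndufv3 0.83 (SE 0.22, adjusted p = 0.0317). Of these 7, Cox6a1 and Uqcrc1 hold the NRF1 letters and Cox6a1, Cox6b1 and Ndufs8 the GABP letters in the promoter windows used. Of all 75 member promoters 5 hold the long NRF1 letters and 16 the GABP letters. As 76 of 79 members had positive date differences, a higher level at the earlier date is no trait of the holders. A link between letters and date was not tested.

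Sdha hardly differed between the PTX dates, and Ndufa4l2 went against the pattern. Sdha was at 465, 457, 377 and 404 CPM at the earlier date and 405, 514, 354 and 384 at the later, with overlap (log2 difference 0.04, SE 0.19, adjusted p = 0.953), while its partner Sdhb was at 329, 299.5, 252 and 304 and 207, 116, 205 and 171 (log2 difference 0.76, SE 0.25, adjusted p = 0.0858). Ndufa4l2 was the 1 member called lower at the earlier date, at 0.498, 1.85, 0 and 0.0949 against 2.04, 5.08, 8.25 and 3.82 CPM (log2 difference -4.12, SE 1.19, adjusted p = 0.0483). It was not alone below 0, as 14 of 15 tested members of complex IV and 15 of 16 of complex V were positive.

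Levels of sensory neuron, neutrophil and macrophage markers moved with the dates within PTX but overlapped between the earlier and later vehicle dates. In vehicle, sensory neuron markers took 0.127 to 0.435% and 0.322 to 0.846%. Neutrophil markers there took 7.50 to 18.0% and 8.35 to 19.1%, and macrophage markers 0.617 to 1.14% and 0.493 to 1.07%. Sensory neuron markers took 2.37 to 2.89% of counts at the earlier PTX date and 1.16 to 1.51% at the later. Neutrophil markers took 0.0314 to 1.05% and 5.52 to 11.6%, and macrophage markers 0.00745 to 0.0687% and 0.268 to 0.532%, with all 11 neutrophil and all 12 macrophage markers counted at both PTX dates. Satellite glia markers overlapped between the PTX dates, at 0.477 to 2.95% and 0.688 to 1.86%. The part of the marked cell types in the levels of the members was not tested.

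**Figure D5:**
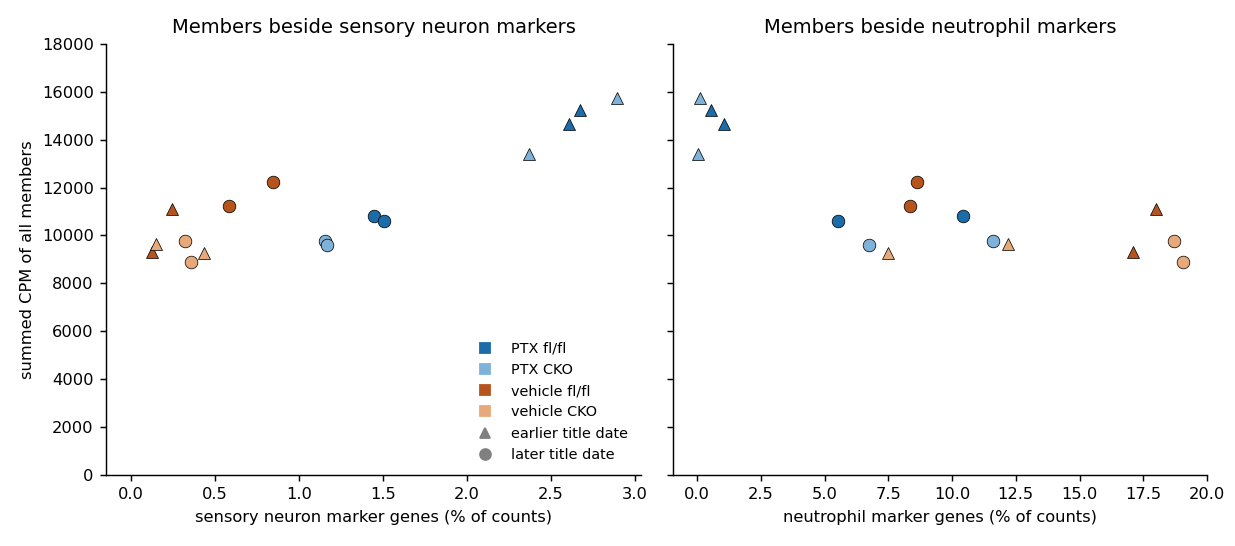
Summed CPM of all members (y axis) beside the percentage of gene counts taken by the 16 sensory neuron markers (left) and the 11 neutrophil markers (right), 1 point per library, coloured by group, with triangles for the earlier and circles for the later title date. The 4 PTX libraries of the earlier date stand apart, with the highest sums, the highest neuron share and the lowest neutrophil share.

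The difference between PTX and vehicle became smaller or turned negative without the earlier PTX date, least so for complex II in CKO. Without its 4 libraries the log2 ratio of summed levels in fl/fl went from 0.26 to -0.03 for complex I, from 0.18 to -0.14 for III, from 0.06 to -0.14 for IV, from 0.31 to 0.10 for II and from 0.29 to 0.03 for V. In CKO it went from 0.43 to 0.08 for I, from 0.32 to -0.09 for III, from 0.14 to -0.28 for IV and from 0.44 to 0.18 for V. Complex II in CKO went from 0.45 to 0.30, and its PTX sums of the later date, 799 and 746 CPM, were still above all 4 vehicle CKO sums. Sdha was at 0.72 in fl/fl and 0.71 in CKO, with adjusted p of 0.464 and 0.561 on 2 PTX libraries per label. Ndufa9 in fl/fl went from 0.59 to 0.12 and Atp5a1 from 0.53 to 0.24. Without the later PTX date, 5 members were called in fl/fl (Ndufa10, Ndufa4, Ndufa9, Sdhb and Uqcrc1, all higher), where 12.9% of all genes were, and 13 in CKO, 12 of them higher, where 13.9% of all genes were.

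The genotype comparisons ask whether the CKO label went with another level. Under PTX no member was called and 0 had an unadjusted p under 0.05, where 0% and 1.87% of all genes did. The median log2 fold change of CKO over fl/fl was -0.05 beside -0.04 for all genes, and the ratios of summed levels ran from 0.92 to 0.96, all with overlap. Same-numbered PTX libraries share a title date, and the labels do not state that they are pairs. Set side by side, the complex II sum was lower in CKO in 4 of 4, at 0.798, 0.987, 0.957 and 0.964 of the fl/fl library. The sums of complexes I, III, IV and V were each lower in 3 of 4. No test was made on these sums. Positive values were found for 28 of 79 members and 46.5% of all genes, and 1.33% of all genes were higher and 0.542% lower at an unadjusted p under 0.05. Sdha was the 1 member without overlap, where 0.69% of all genes were higher and 1.37% lower without it, at 377, 404, 354 and 384 CPM in CKO and 465, 457, 405 and 514 in fl/fl (log2 difference -0.28, SE 0.21, adjusted p = 1). Under vehicle no member was called (0.0211% of all genes), 3 had an unadjusted p under 0.05, and 68 of 79 were negative, with a median of -0.23 beside -0.02. At that unadjusted p 4.61% of all genes passed, 1.35% higher and 3.26% lower, and 48.4% of all genes were positive. Groups did not overlap for 5 members lower, where 0.81% of all genes were higher and 1.68% lower without overlap. Ratios of summed levels ran from 0.84 to 0.90 and all groups overlapped. Uqcrc2, a core protein of complex III, was at 93.3, 59.6, 90.1 and 76.9 CPM in CKO and 149.7, 122, 139 and 155 in fl/fl, without overlap (log2 difference -0.82, SE 0.26, adjusted p = 0.958). Atp5f1, the b subunit of the ATP synthase stator, was at 104, 103, 147 and 133 and 224, 178, 168 and 157 CPM (log2 difference -0.58, SE 0.25, adjusted p = 0.983). Of the abundant members, CKO over fl/fl under PTX was -0.06 (SE 0.25, adjusted p = 1) for Atp5b, -0.19 (SE 0.24, adjusted p = 1) for Cox4i1 and -0.13 (SE 0.34, adjusted p = 1) for Ndufa4. Under vehicle they had -0.10 (SE 0.25, adjusted p = 1), -0.18 (SE 0.24, adjusted p = 1) and -0.42 (SE 0.34, adjusted p = 1). The interaction of genotype label and treatment had 63 of 79 members positive with a median of 0.20 beside 0.03, and none was called, at an unadjusted p under 0.05 or after adjustment. Of all genes 51.8% were positive, 3.35% had an unadjusted p under 0.05 (2.19% higher, 1.15% lower) and 0.00704% were called. DESeq2 and limma-voom called 0 members in these 3 comparisons too.

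The members differed by transcript length in the PTX comparisons. In fl/fl the 16 tested members with transcripts of 1500 bases or more had a median log2 fold change of 0.48, the 31 of 700 to 1499 bases 0.17 and the 32 shorter ones -0.07. In CKO the medians were 0.52, 0.44 and 0.16. Spearman's rho of length and fold change across the 79 genes was 0.422 in fl/fl and 0.342 in CKO. Across 12408 other genes with a length it was 0.023 and -0.003, but 10481 of these had 1500 bases or more and only 224 under 700. From long to short, the medians of the other genes in fl/fl were 0.004, -0.06 and -0.24, the same order as in the members. In CKO they were 0.01, 0.05 and -0.04. Genes are not independent replicates, and the same libraries lie behind every point. The long members include Sdha, Ndufs1, Atp5a1, Atp5b and Uqcrc1. Between the PTX title dates the medians were 0.48, 0.51 and 0.54, so that long and short members differed from one date to the other by like amounts.

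Other genes of mitochondrial energy metabolism were counted from lists. Of 36 tested assembly factors, 17 chain components outside the symbol rule and 19 genes of the citric acid cycle and pyruvate dehydrogenase, 0 passed the threshold in either PTX comparison. Of all genes 4.96% passed in fl/fl and 2.58% in CKO. The medians of the 3 lists were 0.42, 0.34 and 0.46 in fl/fl and 0.58, 0.39 and 0.41 in CKO. Atpif1, the inhibitor of ATP synthase, was at 395 ± 68.2 CPM in PTX fl/fl and 214 ± 66.4 in vehicle fl/fl (SD, n = 4), a log2 fold change of 0.89 (SE 0.28, adjusted p = 0.0859). Cyc1, the cytochrome c1 subunit of complex III, had 0.20 (SE 0.25, adjusted p = 0.702). In the citric acid cycle the mitochondrial malate dehydrogenase Mdh2 had 0.19 (SE 0.27, adjusted p = 0.755) in fl/fl and its cytosolic relative Mdh1 0.87 (SE 0.29, adjusted p = 0.0990). Citrate synthase (Cs), chosen after its value was seen, had 0.81 (SE 0.23, adjusted p = 0.0526). Of the assembly factors, Ccdc56 had 0.98 (SE 0.37, adjusted p = 0.152) and Lrpprc, which keeps mitochondrial messenger RNAs stable, 2.16 (SE 0.67, adjusted p = 0.0758) in fl/fl. Of 20 regulators of mitochondrial biogenesis 0 passed, with medians of -0.23 and -0.39. Among them the deacetylase Sirt3 had 1.18 (SE 0.58, adjusted p = 0.276) and the mitochondrial DNA polymerase Polg -0.45 (SE 0.46, adjusted p = 0.650) in fl/fl.

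Some genes of glycolysis passed. Of 21 tested, 5 were higher and 1 lower in fl/fl, where 4.96% of all genes passed. In CKO 4 were higher, where 2.58% of all genes passed. Pfkp, the platelet type of phosphofructokinase, was at 457 ± 158 CPM in PTX fl/fl and 125 ± 31.8 in vehicle fl/fl (SD, n = 4), a log2 fold change of 1.87 (SE 0.35, adjusted p = 0.00932). Hk1, the hexokinase of brain, had 1.44 (SE 0.30, adjusted p = 0.0140), Aldoa 0.94 (SE 0.22, adjusted p = 0.0227) and the neuronal enolase Eno2 1.83 (SE 0.48, adjusted p = 0.0383), while Ldhb, a lactate dehydrogenase, was lower by 1.61 (SE 0.34, adjusted p = 0.0134). In CKO Pfkp, Pfkm, Hk1 and Aldoa were higher, with 1.75 (SE 0.35, adjusted p = 0.0184) for Pfkp and 0.87 (SE 0.22, adjusted p = 0.0459) for Aldoa. Eno2 is itself a marker of neurons, though not 1 of the 16 sensory neuron markers counted here. Those 16 together took a larger share of counts in the PTX libraries of both labels.

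Of 18 tested carriers, porins and uncoupling proteins, 2 were higher and 1 lower in fl/fl and 1 was higher in CKO. Of all genes 4.96% passed in fl/fl and 2.58% in CKO. Slc25a22, a glutamate carrier, had 2.33 (SE 0.42, adjusted p = 0.00753), Slc25a27, an uncoupling protein of brain, 2.79 (SE 0.75, adjusted p = 0.0414) and Ucp2, which is abundant in immune cells, -2.08 (SE 0.54, adjusted p = 0.0359), all in fl/fl. Vdac1, the main porin of the outer membrane, had 1.69 (SE 0.32, adjusted p = 0.0156) in CKO. Dnm1l, the GTPase that divides mitochondria, was at 342 ± 77.0 CPM in PTX fl/fl and 110 ± 37.5 in vehicle fl/fl (SD, n = 4) and was higher in both labels, by 1.64 (SE 0.32, adjusted p = 0.00987) in fl/fl and 1.96 (SE 0.32, adjusted p = 0.00911) in CKO. Immt, which shapes the cristae where the chain sits, had 1.41 (SE 0.30, adjusted p = 0.0225) in CKO. Of 18 tested genes of mitochondrial dynamics and transport, 1 thus passed in fl/fl and 2 in CKO, beside 4.96% and 2.58% of all genes.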

How the data were processed

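RNA-seq of sorted dorsal root ganglion cells was analysed in 16 libraries, 4 per group. Per the labels' protocols the libraries were stranded, made from poly(A) RNA and read as 50-base single reads. Per the submitters' processing notes, bcl2fastq, TopHat2 and HTSeq were used with the mouse build mm9. Versions and the counting's strand setting are not given in the sources used here. The authors deposited raw read counts for 22609 gene symbols per library, plus 5 HTSeq summary lines, which stayed out of library sizes and tests. Of all entries 32.88 to 43.48% were on genes, 39.54 to 44.18% were not unique and 13.73 to 25.39% lay in no feature.

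Counts were scaled by TMM (so CPM refers to the scaled library size), filtered with filterByExpr and fitted with edgeR 4.0.16 (R 4.3.3) quasi-likelihood, 1 term per group over all 16 libraries (12 residual degrees of freedom), with Benjamini-Hochberg adjustment over 14200 genes and a threshold of 0.05. The title dates were fitted with 1 term per group and date (8 residual degrees of freedom). Alternatives were other scalings and filters, the 2 groups compared alone, limma-voom (limma 3.58.1), DESeq2 1.42.0, a replicate or date block, and leaving out each library or date. The script was tested on data simulated with less spread than these libraries have (common biological coefficient of variation 0.939). That test checks the code and not how many changes could be found here. Every one of 24 pairs of libraries within groups differed by more than sampling noise (chi-square at least 19.46 per degree of freedom). Same-numbered libraries deviated together between CKO and fl/fl under PTX (correlations 0.429, 0.481, 0.468 and 0.233). These libraries also share a title date, so a pairing of single libraries and a shared date cannot be told apart. The other comparisons had at least 1 correlation of 0.1 or less.

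Shared windows are the 50-base windows of 1 GENCODE M21 transcript per gene that aligned to another gene's transcript with at most 2 mismatches. Promoters come from a RefSeq table (GRCm38.p6), whose coordinates are not those of the counts' build. Named were the isoform families, complex II, the catalytic subunits, the 2 members of highest CPM per complex or the called ones, and up to 4 called or the 2 highest genes of each list. Ndufa9, Ndufa10, Ndufa13, Uqcrc2, Atp5f1, Cox5a and Cox5b were added after their values were seen. The members and lists were chosen with earlier results of these data known. No protein sequences were used here. The single values of 1 member are not reported here.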

Additional observations from a re-analysis of the deposited data

Results flagged for a closer look

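The levels of 41 members named in the text and the 5 complex sums were scanned. Cox6a2, Cox8c and Ndufs5, at no more than 3 counts in any library, were not. In 13 of 180 sets of 4 libraries (a member or a sum in a group), 1 library lay so far from the other 3 that its gap to the next, as a part of the range, exceeded Dixon's 95% critical value. Chance gives about 1 in 20. Of the low isoforms, Cox4i2 was at 22.6 CPM in vehicle fl/fl replicate 3 (6.79 to 9.29 in the others), Cox7a1 at 3.86 in PTX fl/fl replicate 4 (1.66 to 2.02) and Ndufa4l2 at 38.5 in vehicle CKO replicate 1 (2.81 to 7.08). Cox7b2, a testis isoform, was at 5.97 CPM in PTX CKO replicate 4 (0 to 0.190), which is 50 of its 64 counts, and at 0.665 in vehicle fl/fl replicate 4. Cox8b, a muscle isoform, was at 1.25 CPM in vehicle fl/fl replicate 4, where all its 15 counts lie. Atp5g2 was at 0.511 CPM in vehicle CKO replicate 3 and at 0 in the others of that group, and Atp5g1 at 7.18 in vehicle CKO replicate 1 (3.71 to 3.86).

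Of the abundant members, Ndufa4 was at 97.2 CPM in vehicle CKO replicate 1 (181 to 183 in the others), Cox7b at 72.0 in vehicle CKO replicate 3 (92.8 to 96.8) and Ndufs8 at 102.5 in vehicle CKO replicate 4 (122 to 126). Ndufa4 and Ndufa4l2 were thus extreme in the same library, in opposite directions. Of the genes that are not subunits, Atp5s was at 32.8 CPM in vehicle fl/fl replicate 4 (9.40 to 13.2) and Cox4nb at 83.0 in vehicle fl/fl replicate 2 (46.9 to 52.4).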

How the results depend on the processing

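Where no member was called between PTX and vehicle, other settings called some. In fl/fl a filter of 5 CPM in 4 libraries called 1 (Sdha), limma-voom 17, DESeq2 4 and the fit without the later PTX date 5, where 5.93, 37.2, 10.7 and 12.9% of all genes were called. In CKO scaling by total gene counts called 3 (Ndufa10, Ndufa9 and Sdha), limma-voom 9, DESeq2 5 and the fit without the later PTX date 13, where 3.87, 18.9, 9.37 and 13.9% of all genes were. Leaving out 1 library gave 0 to 1 in both labels, with 4.05 to 5.79% of all genes called where it gave 1 in fl/fl and 2.93 to 3.77% in CKO. With the replicate block 0 members were called in all 5 comparisons, while calls over all genes fell from 704 to 361 in fl/fl and from 366 to 126 in CKO. The genotype comparisons and the interaction had 0 in all settings.

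Without the earlier PTX date the log2 ratios of summed CPM in fl/fl were -0.0345 for complex I, 0.0993 for II, -0.14 for III, -0.14 for IV and 0.0323 for V, and in CKO 0.0805 for I, -0.0853 for III, -0.28 for IV and 0.18 for V. In CKO complex II had 0.65 with total gene counts and complex IV 0.47 without the later PTX date. Between genotype labels under vehicle, complex IV had -0.26 without the earlier vehicle date and -0.0329 without the later. The cause was not tested. Of 5586 values of the 38 named and tested members under the alternatives, 5532 stayed on their side of the threshold, 436 of them with a changed sign while neither value passed, and 54 newly passed. Total gene counts moved the median of all genes by 0.203 in CKO and by 0.111 in the interaction. Members above 0 numbered 41 to 55 of 79 in fl/fl and 53 to 74 in CKO over the scalings. With a median standard error of 0.30, changes of the size of most members' values could not be detected. Members at few counts and with shared windows were the least precise.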

Other observations

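Mitochondrial ribosomal proteins, which make the chain's mitochondrially encoded subunits, were counted as well. Of 75 tested, 57 were above 0 between PTX and vehicle in fl/fl (median 0.35) and 61 in CKO (median 0.39). None passed the threshold in fl/fl and 1 in CKO, where 4.96% and 2.58% of all genes did. The 1 was Mrpl19, at 41.7 ± 15.6 CPM under PTX and 5.42 ± 3.58 under vehicle (SD, n = 4), a log2 fold change of 2.94 (SE 0.72, adjusted p = 0.0401, edgeR). In fl/fl Mrpl19 had 0.16 (SE 0.67, adjusted p = 0.935), and the difference between the labels was not past the threshold for any gene of this list.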
